A study of Mus musculus with 16 samples.

Results

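miR-31 was followed in C2C12 cells, an established line of mouse myoblasts, before and during differentiation into myotubes, which low serum sets off. It is read here as its arms miR-31-5p and miR-31-3p, which are 2 of the 2274 miRNA names in the tables. A read was taken when the name listed for it, without any text in parentheses, was that of an arm. The 16 small RNA libraries form 4 groups of 4. Control cells are wild-type C2C12, as 2 populations. The other cells, called tKO, lack 3 miRNA genes, miR-1a-1, miR-1a-2 and miR-206, as 2 clones. Each population or clone, called a line below, was sampled in growth medium with 20% FBS (GM) and after 3 days in 2% HS (DM3), with 2 biological replicates each. The growth protocol calls the cells PAX7-negative, for control and tKO alike. The 4 libraries of a group therefore stand for 2 lines, and p-values measure the spread over libraries that share a line. All values are from bulk RNA, in which fewer cells of a type and less RNA per cell cannot be told apart.

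A miRNA is cut from a hairpin in the primary transcript by Drosha and then from its loop by Dicer, and 1 arm is loaded onto an Argonaute protein. Bases 2 to 8, the seed, pair with sites in messenger RNAs. In quiescent muscle stem cells miR-31 is known to hold back the translation of Myf5, a transcription factor of the myoblast fate, whose mRNA is stored with it in granules. miR-206 and miR-1 are miRNAs of differentiating muscle. Myf5 mRNA and protein were not measured here.

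The mature sequences, from RefSeq's table for GRCm38.p6, are shown with the seed in capitals, since the seed sets which sites each arm can match.
miR-31-5p: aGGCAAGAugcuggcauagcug
miR-31-3p: uGCUAUGCcaacauauugccauc
The 5p arm lies on the minus strand at chr4:88910614-88910635 and the 3p arm at chr4:88910577-88910599. The hairpin gene Mir31 (ENSMUSG00000065408.1) spans chr4:88910557-88910662, inside an exon of the long non-coding RNA gene AL805899.1 (ENSMUSG00000117123.1) on the same strand in GENCODE M21. No other mature miRNA among the 1679 of the table has either seed. The hairpin of 106 bases is printed with both arms in capitals, because reads of the loop carry a result below.
Mir31 hairpin: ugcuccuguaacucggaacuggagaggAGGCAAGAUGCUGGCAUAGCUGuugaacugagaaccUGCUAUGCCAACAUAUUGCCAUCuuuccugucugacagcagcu
The 5p arm takes hairpin bases 28 to 49 and the 3p arm bases 64 to 86, counted from 1 at the 5′ end.

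The 3′ UTR of Myf5 (ENSMUSG00000000435.1, minus strand of chromosome 10) holds 1 match to the miR-31-5p seed. It is shown with the letters TCTTGCCA in capitals, which are the match to bases 2 to 8 followed by an A.
Myf5 3′ UTR: tgtaaatactgTCTTGCCActttatgagaa
The match takes bases 117 to 124 of a 3′ UTR of 1112 bases, at chr10:107483896-107483903 in GRCm38. The search used the mRNA strand only, since that strand pairs with the miRNA. Of 9534 windows of the same length in annotated mouse 3′ UTRs, 2.58% hold TCTTGCCA and 9.51% hold TCTTGCC. The match is a description of the sequence and shows no binding.

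The libraries held 112792 to 6543570 miRNA reads, and the smallest was the tKO DM3 library of line 1, replicate 1. The deleted miR-206-3p, a check of the labels, was at 1156 ± 297 CPM, which are read counts scaled to 1000000 miRNA reads per library, in GM controls, against 6.79 ± 6.38 in GM tKO cells (mean ± SD, n = 4). The DM3 means were 34361 ± 16201 CPM for control and 21.8 ± 33.0 for tKO. Reads shorter than 18 nt made up 1.88% to 6.49% of the GM libraries and 2.96% to 18.9% of the DM3 libraries. Where this share or the depth moves with a result below, its part in the result was not tested.

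miR-31-5p was an abundant miRNA in all 16 libraries, at 3649 to 9210 CPM, and stood 27th to 52nd among the names of a library. Its reads numbered 835 to 47225 per library. In control GM, line 1 had 8299 and 8037 CPM in replicates 1 and 2, and line 2 had 7385 and 7217 CPM. In tKO GM, line 1 had 7976 and 9210 CPM and line 2 had 8180 and 7787 CPM. The GM groups overlapped, and none of their 8 libraries was below 7217 CPM. In control DM3, line 1 had 7376 and 3649 CPM and line 2 had 5346 and 4165 CPM. In tKO DM3, line 1 had 7403 and 6702 CPM and line 2 had 8374 and 5199 CPM. DM3 values were more spread than GM values, and the 2 control DM3 libraries of line 1 lay furthest apart. The smallest library had a Wilson 95% interval of 6919 to 7920 CPM, which covers counting error only.

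The group means were ordered as tKO GM (8288 ± 635 CPM), control GM (7734 ± 517), tKO DM3 (6920 ± 1336) and control DM3 (5134 ± 1655; SD, n = 4 each). Neighbours in this order differed by less than the larger of their 2 SDs, except for the step from tKO DM3 to control DM3, which exceeded both. In the order of mean CPM over all libraries, miR-31-5p (7019 CPM) stood 38th, between miR-99a-5p (7160 CPM) and miR-423-3p (6599 CPM). These means differ by less than the SDs over the 16 libraries, 1598, 3703 and 2287 CPM.

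miR-31-3p, the less abundant arm, was found at 44.4 to 221 CPM. In control GM, line 1 had 117 and 133 CPM in replicates 1 and 2, and line 2 had 130 and 173 CPM. In tKO GM, line 1 had 204 and 221 CPM and line 2 had 126 and 124 CPM. All 4 values of tKO GM were above the lowest control GM value, and the groups overlapped. In control DM3, line 1 had 44.4 and 54.0 CPM and line 2 had 82.9 and 67.5 CPM. In tKO DM3, line 1 had 79.8 and 108 CPM and line 2 had 61.1 and 74.8 CPM. Every DM3 library of a genotype was below every GM library of that genotype, which on this scale held for 9.29% of the 807 names tested in control and 7.68% in tKO. The lowest counts were 9 reads in the smallest tKO DM3 library (Wilson 95% interval 42.0 to 152 CPM) and 11 in control DM3 line 1, replicate 1 (24.8 to 79.4 CPM). The first interval reaches into the tKO GM range, and the second stays below the control GM values.

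**Figure D1:**
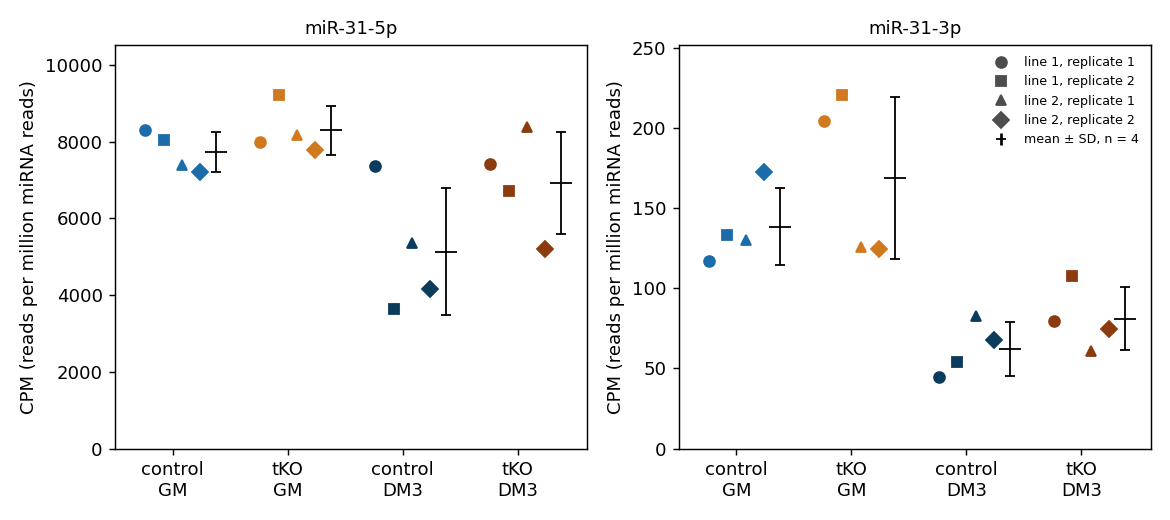
CPM of miR-31-5p (left) and miR-31-3p (right) in each library, on linear axes from 0, by group. Marker shapes give line and replicate, and the bars give the mean ± SD of 4 libraries. The 3p values of DM3 lie below those of GM in both genotypes, while the 5p values of DM3 and GM overlap on this scale.

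Differentiation was compared within each genotype. In control cells miR-31-5p was 2.02-fold lower in DM3 than in GM and miR-31-3p was 2.84-fold lower. The fit was edgeR's quasi-likelihood test over 807 names with Benjamini-Hochberg adjustment, on counts scaled by TMM, a factor per library that sets aside the most extreme names. In GM the TMM-scaled CPM of miR-31-5p in control was 8754 and 9051 in line 1, replicates 1 and 2, and 9361 and 8796 in line 2. In DM3 it was 5214 and 3258 in line 1 and 4920 and 4397 in line 2. These groups did not overlap, and all 4 DM3 values were lower, which held for 15.7% of names. miR-31-5p had a log2 fold change of -1.02 (SE 0.24) with an edgeR adjusted p of 0.0034. For miR-31-3p it was -1.51 (SE 0.37) with an edgeR adjusted p of 0.0047. In this comparison 223 of 807 names passed, 27.6%, with 95 (11.8%) lower in DM3 and 15.9% higher.

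With scaling by total counts, the median of all names moved from 0.023 to 0.39 in control cells, and 71.2% of the names that passed were higher in DM3, against 57.4% with TMM. miR-31-5p then had a log2 fold change of -0.59 and did not pass (edgeR adjusted p = 0.0674), while miR-31-3p did (-1.15, adjusted p = 0.0197). Relative to the median name, miR-31-5p was at -1.04 with TMM and at -0.98 with total counts. With either replicate alone miR-31-5p did not pass (-0.91, adjusted p = 0.125, and -1.20, adjusted p = 0.0847, edgeR). With sequences of 18 to 25 nt alone its change was -0.61 and passed (edgeR adjusted p = 0.0218). The call of miR-31-3p in control was lost with 18 to 25 nt (-0.50, edgeR adjusted p = 0.367), with replicate 1 alone (-1.50, 0.126) and with mature forms alone (-0.96, 0.148), as described with the loop reads below.

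In GM tKO cells the TMM-scaled CPM of miR-31-5p was 10202 and 7656 in line 1, replicates 1 and 2, and 9581 and 8817 in line 2. In DM3 it was 5590 and 5703 in line 1 and 7910 and 5549 in line 2. The groups overlapped through line 2, replicate 1 of DM3, which was above 1 GM library. The log2 fold change was -0.55 (SE 0.24) and did not pass (edgeR adjusted p = 0.112). Its 95% interval, not adjusted, ran from -1.05 to -0.056. GM and DM3 share their lines, and with the replicate number and the line as blocks the value was -0.55 and passed (edgeR adjusted p = 0.046). With total-count scaling it was -0.26 (edgeR adjusted p = 0.493), and without mismatch reads -0.34 (0.194). The 3p arm had 261 and 183 TMM-scaled CPM in line 1 and 148 and 141 in line 2 in GM, and 60.3 and 91.8 in line 1 and 57.7 and 79.9 in line 2 in DM3. These groups did not overlap, which held, with DM3 lower, for 9.54% of names. For miR-31-3p the log2 fold change was -1.32 (SE 0.37) with an edgeR adjusted p of 0.0164. Here 159 names passed, 19.7% of those tested, with 8.3% lower and 11.4% higher. The call of miR-31-3p in tKO was lost without tKO GM line 1, replicate 1 (-1.12, edgeR adjusted p = 0.0638) or without tKO DM3 line 2, replicate 1 (-1.23, 0.0543). The change itself was smaller with 18 to 25 nt (-0.68, 0.217) and with mature forms alone (-0.84, 0.236), and did not pass.

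Line by line, the log2 change of miR-31-5p from GM to DM3 on the TMM scale was -0.75 and -1.47 for the 2 replicates of control line 1, and -0.93 and -1.0 for those of control line 2. In tKO it was -0.87 and -0.42 in line 1 and -0.28 and -0.67 in line 2. All 8 pairs were lower in DM3 on this scale. On the CPM scale 1 pair, tKO line 2, replicate 1, was higher (0.034), and the others ranged from -0.11 to -1.14. The 3p arm was lower in all 8 pairs on both scales, with values from -0.81 to -2.10 with TMM and from -0.64 to -1.38 on CPM.

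The deletion was compared in each medium. In GM neither arm differed between tKO and control beyond the spread: the log2 fold change of miR-31-5p was 0.012 (95% interval -0.48 to 0.50, edgeR adjusted p = 0.991) and that of miR-31-3p 0.17 (-0.57 to 0.91, adjusted p = 0.991). In this comparison 9 names, 1.12%, passed. In DM3 miR-31-5p was 1.39-fold higher in tKO on the TMM scale, with all 4 tKO values (5549 to 7910 CPM) above all 4 control values (3258 to 5214 CPM). Such a lack of overlap, tKO higher, was seen for 2.11% of names. The log2 fold change of miR-31-5p was 0.48 (SE 0.24) and did not pass (edgeR adjusted p = 0.449), with an interval of -0.018 to 0.97. On the CPM scale the DM3 groups overlapped. miR-31-3p had a log2 fold change of 0.36 in DM3 (interval -0.41 to 1.13, edgeR adjusted p = 0.712). In DM3, 7 names passed, 0.867%. Without the smallest library, tKO DM3 line 1, replicate 1, 53 names passed, and miR-31-5p still did not (0.60, edgeR adjusted p = 0.184). Over all libraries left out in turn miR-31-5p ranged from 0.32, without tKO DM3 line 2, replicate 1 (edgeR adjusted p = 0.609), to 0.62. miR-31-3p ranged from 0.20 to 0.59 in DM3, and neither arm passed in any of these fits.

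The interaction, which is the change from GM to DM3 in tKO minus that in control, was 0.47 for miR-31-5p (interval -0.23 to 1.16, edgeR adjusted p = 0.937) and 0.19 for miR-31-3p (-0.88 to 1.26, adjusted p = 0.972). The decrease of miR-31-5p that passed in control and not in tKO was thus not shown to differ between them. No name passed this test in edgeR, and 37 had an unadjusted p under 0.05. The DESeq2 Wald test called 0 names as well. The 37 names are 4.58% of those tested, and the 0 calls are 0%.

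**Figure D2:**
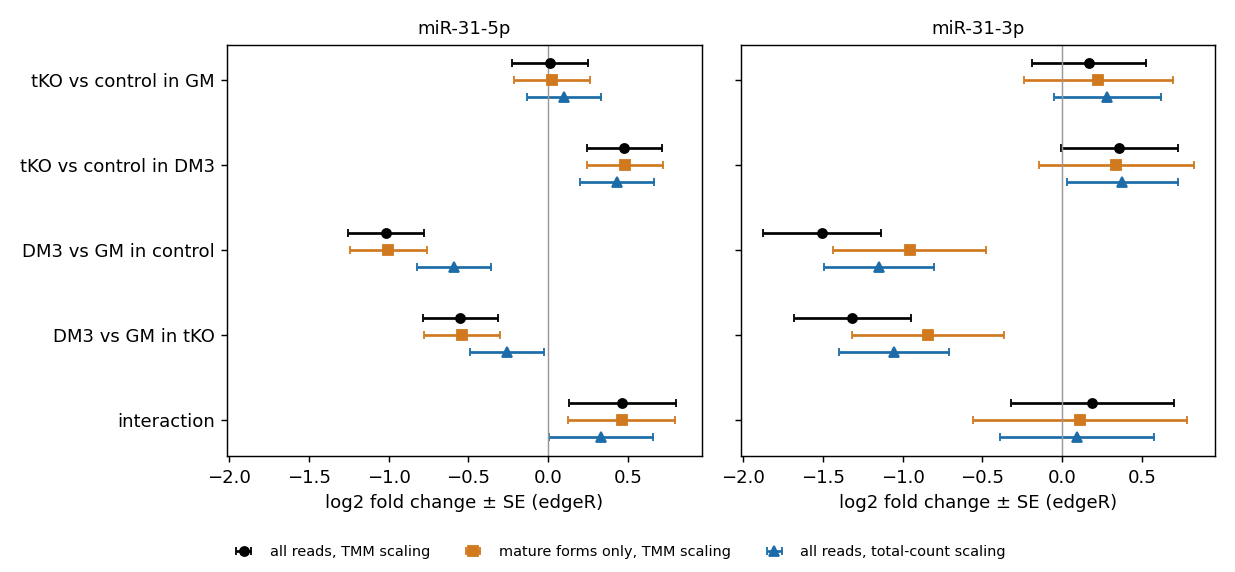
Log2 fold changes of miR-31-5p (left) and miR-31-3p (right) from edgeR, with bars of ± 1 SE, for 5 comparisons and 3 ways of counting. The decrease of miR-31-5p in DM3 is smaller with total-count scaling (-0.59 in control) than with TMM (-1.02), and that of miR-31-3p is smaller with mature forms alone (-0.96 in control) than with all reads (-1.51).

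The reads listed under miR-31 were then split by where they lie on the hairpin. Of 270495 reads of miR-31-5p and 4859 of miR-31-3p, those without mismatch gave 242607 reads of the mature 5p arm and 2477 of the mature 3p arm. A further 2564 reads ran from the 5p arm through the loop, and 1917 ran from the loop through the 3p arm. The leading forms of each kind are shown with annotated arm bases in capitals, because the lengths below are counted from them.
5p form of 23 nt: AGGCAAGATGCTGGCATAGCTGt
5p form of 22 nt: AGGCAAGATGCTGGCATAGCTG
5p form of 21 nt: AGGCAAGATGCTGGCATAGCT
5p form of 20 nt: AGGCAAGATGCTGGCATAGC
5p arm with loop: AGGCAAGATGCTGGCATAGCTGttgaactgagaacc
loop with 3p arm: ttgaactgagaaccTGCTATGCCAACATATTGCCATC
loop with 3p arm, 1 base shorter: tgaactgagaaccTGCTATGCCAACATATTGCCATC
mature 3p form of 22 nt: TGCTATGCCAACATATTGCCAT
Reads of the 5p arm with the loop ended at hairpin base 63, the last before the 3p arm, in 48.9% of cases, at base 62 in 28.1% and at base 64 in 17.4%. Reads of the loop with the 3p arm began at base 50, the first after the annotated 5p arm, in 52.8%, and at base 51, the first after the 23-nt 5p form, in 45.7%. These classes were drawn with a tolerance, in which the 5p start lay within 2 nt and the loop edge within 3 nt of the annotated position, so only the spread within it was free.

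Loop-spanning reads made up a large part of what was listed as miR-31-3p. Over all libraries 43.9% of its reads were longer than 30 nt, the fifth highest share among 315 names with at least 1000 reads, where the median was 0.0192%. That share pools libraries of unequal depth. Single libraries of control cells had 35.2% to 76.7% in GM but 12.9% to 38.0% in DM3. Those of tKO cells had 44.4% to 61.3% and 13.3% to 44.4%. For miR-31-5p the pooled share was 1.09%. The loop with the 3p arm had 76.1 and 71.5 CPM in line 1 of control GM and 61.6 and 53.9 CPM in line 2. In DM3 controls it had 16.1 and 18.3 CPM in line 1 and 22.6 and 8.02 CPM in line 2. These groups did not overlap, and neither did those of tKO, with 51.1 to 120 CPM in GM and 8.14 to 35.5 CPM in DM3. Of all names tested, 9.29% in control and 7.68% in tKO were lower in DM3 without overlap on the CPM scale. Mature 3p forms overlapped between the media, at 27.3 to 102 CPM in control GM and 20.2 to 53.5 CPM in control DM3, and at 56.1 to 101 and 26.6 to 61.4 CPM in tKO. Counted by mature forms alone, the 3p change from GM to DM3 was -0.96 (SE 0.48, edgeR adjusted p = 0.148) in control and -0.84 (SE 0.48, adjusted p = 0.236) in tKO, so that both calls were lost. With sequences of 18 to 25 nt they were lost as well (-0.50, adjusted p = 0.367, and -0.68, adjusted p = 0.217). The 5p change was -1.0 in control by mature forms and kept its call (edgeR adjusted p = 0.00395).

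Per 100 mature 5p reads, loop-spanning reads of both kinds numbered 2.33 and 2.38 in replicates 1 and 2 of control GM line 1, and 2.13 and 2.08 in line 2. In control DM3 they numbered 0.915 and 1.45 in line 1 and 0.994 and 0.963 in line 2. The control groups did not overlap, and every DM3 value was lower. In tKO GM the values were 2.41 and 3.34 in line 1 and 1.76 and 1.64 in line 2. In tKO DM3 they were 2.29 and 1.10 in line 1 and 0.465 and 0.951 in line 2. The tKO groups overlapped through the smallest library, whose 2.29 rests on 17 loop-spanning reads. The difference of DM3 from GM was -1.15 in control, with exact permutation p = 0.0286 (two-sided), the lowest value among 70 assignments, and an adjusted p of 0.114 over 8 tests. In tKO it was -1.08 (exact permutation p = 0.114, adjusted p = 0.183). Paired by line and replicate number, all 4 tKO values were lower in DM3, by differences from -0.12 to -2.24. Whether replicate numbers pair the libraries was not settled, and the sizes of these differences rest on them. The sign does not, since within each tKO line both DM3 values were lower than both GM values. This measure was defined after the sequences were seen, and lack of overlap in it was not counted for other names. In the share of reads longer than 30 nt, 88 of 208 names had a lower mean in DM3 in control and 81 in tKO. Over whole control libraries, reads longer than 30 nt were at 0.119% to 0.205% in GM and 0.420% to 2.21% in DM3, the opposite order. In tKO libraries they were at 0.129% to 0.557% and 0.172% to 4.86%, with overlap.

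**Figure D3:**
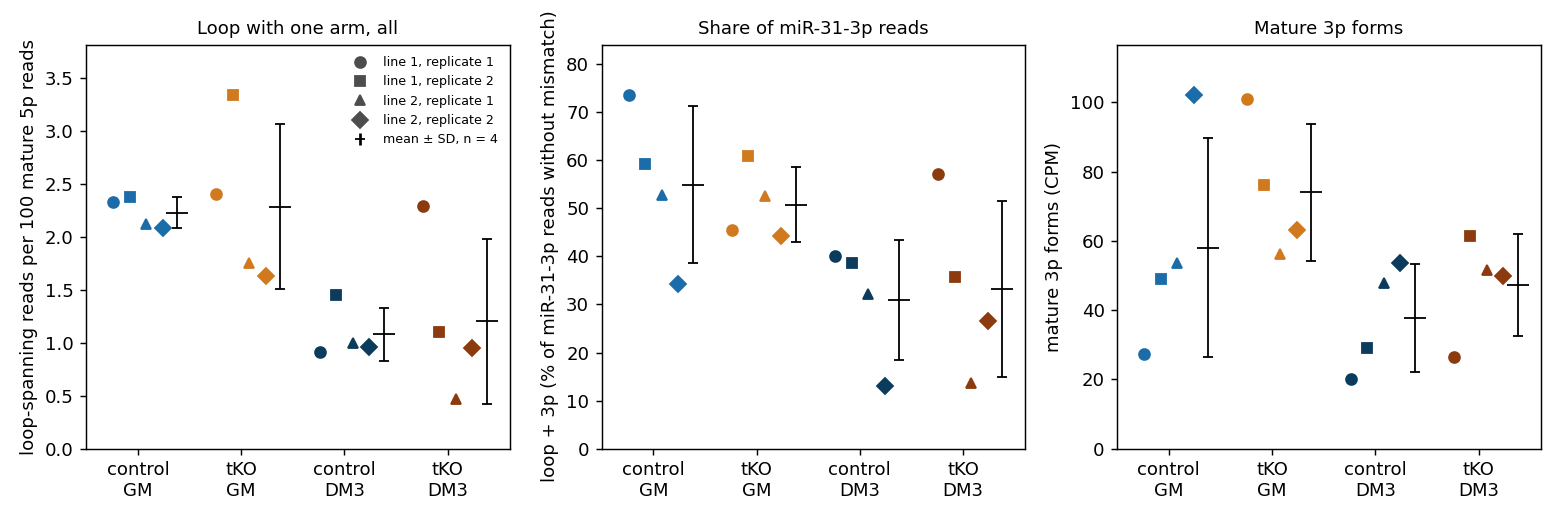
Loop-spanning reads per 100 mature 5p reads (left), the loop with the 3p arm as a share of miR-31-3p reads without mismatch (middle) and mature 3p forms in CPM (right), per library and group, on linear axes from 0 with mean ± SD of 4 libraries. In control cells the left panel shows 2.08 to 2.38 in GM and 0.915 to 1.45 in DM3, while the mature 3p forms overlap.

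The ratio of 5p to 3p reads, counted by name, was 70.9, 60.2, 56.7 and 41.8 in control GM and 39.0 to 64.9 in tKO GM. In DM3 it was 61.7 to 166 in control and 62.2 to 137 in tKO. The highest, 166, was that of control DM3 line 1, replicate 1, with 11 reads of the 3p arm. Without that library the control difference below was 0.19. The groups overlapped, and on the log2 scale DM3 exceeded GM by 0.51 in control (two-sided exact permutation p = 0.2, adjusted p = 0.533 over 16 tests) and by 0.74 in tKO (p = 0.0857, adjusted p = 0.274). By mature forms, which leave out loop-spanning, mismatch and other reads, the control difference was -0.091, well within the group SDs of 0.84 and 0.90. The direction in control thus depended on the reads counted, and which of them turned it was not tested. In tKO it did not change sign under the settings run. Paired by line and replicate number, the log2 ratio by name was higher in DM3 in all 8 pairs, by 0.15 to 1.18. That count depends on the numbering, and whether replicate numbers pair the libraries was not settled. In control line 1, the log2 ratio of DM3 replicate 2 (6.07) was lower than that of GM replicate 1 (6.14).

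The 5′ end of miR-31-5p, which sets the seed, was the annotated base in 99.3% to 99.7% of its mature reads in every library. The 3′ end varied. The 23-nt form is 1 base longer than the annotated sequence, and a T added to the 22-nt form would be counted with it. It took 38.6% to 44.7% of mature 5p reads without mismatch in control GM and 30.6% to 36.8% in control DM3. In tKO it took 39.2% to 42.3% in GM and 35.3% to 36.8% in DM3. The media did not overlap in either genotype, and the DM3 shares were lower. This was not tested or counted for other names. In mean length of reads of up to 30 nt, 14.9% of 208 names in control and 13.5% in tKO were lower in DM3 without overlap. Forms of 19 to 21 nt took 16.6% to 17.5% in control GM and 23.4% to 29.8% in control DM3, and 17.2% to 21.6% and 19.8% to 24.4% in tKO. The shorter forms were thus more frequent in control DM3 without overlap, while tKO overlapped. The difference was 8.21 percentage points in control (exact permutation p = 0.0286, adjusted p = 0.114 over 8 tests) and 3.93 in tKO (p = 0.0571, adjusted p = 0.152). This share, like the loop-spanning measure, was defined after the sequences were seen, and its lack of overlap was not counted for other names. In all 4 tKO pairs of the same line and replicate number the DM3 share was higher, by 1.74 to 7.17 points. This too depends on the numbering: in tKO line 1, DM3 replicate 1 (19.8%) was below GM replicate 2 (21.6%).

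The mean length of miR-31-5p reads without mismatch was 22.09 ± 0.04 nt in control GM, 22.01 ± 0.03 in tKO GM, 21.70 ± 0.10 in control DM3 and 21.79 ± 0.09 in tKO DM3 (SD, n = 4). In control every DM3 library was shorter than every GM library, by a mean of -0.39 nt, and the same held in tKO, by -0.22 nt. Both had exact permutation p = 0.0286 (two-sided), the lowest possible, and adjusted p = 0.152 over 16 tests, which did not pass. Mature forms alone gave -0.33 nt in control and -0.17 nt in tKO, again without overlap. Among 208 names with reads of up to 30 nt in every library, 31 (14.9%) had shorter DM3 reads without overlap in control and 28 (13.5%) in tKO. The change of miR-31-5p among such reads, -0.32 and -0.17 nt, was more negative than that of all but 12 names in control and all but 30 in tKO, where the median changes were -0.0099 and -0.015 nt. tKO GM was shorter than control GM by a mean of -0.081 nt, also without overlap (exact permutation p = 0.0286, adjusted p = 0.152), which 4.33% of names showed in reads of up to 30 nt. The mature forms of miR-31-5p overlapped there, and so did sequences of 18 to 25 nt, with a difference of -0.043 nt. Beside these values stands the higher share of reads under 18 nt in DM3 libraries given above.

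**Figure D4:**
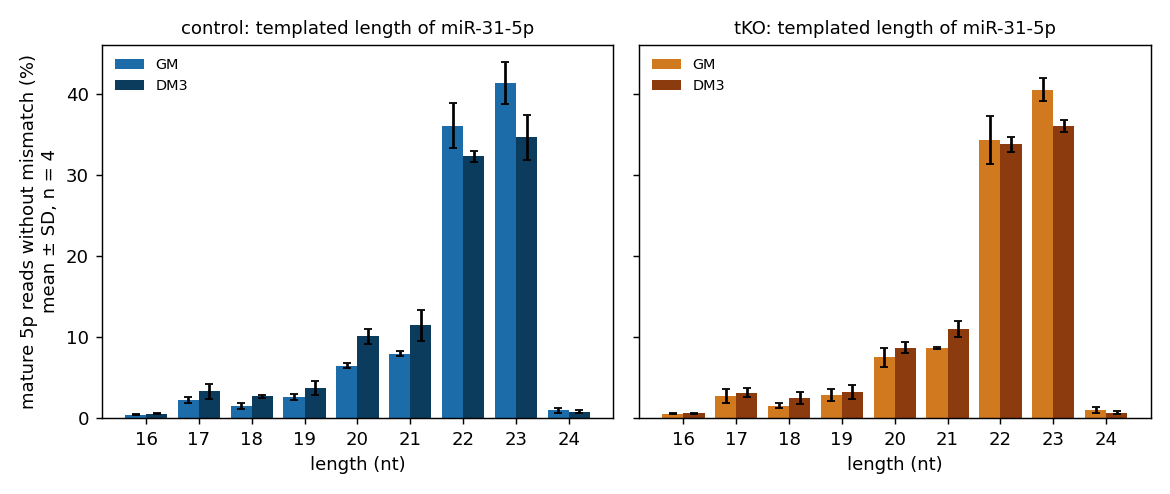
Templated length of mature miR-31-5p reads without mismatch, as the percentage of such reads at each length from 16 to 24 nt, in control (left) and tKO (right). Bars are means of 4 libraries with SD, on a linear axis from 0. The 23-nt form falls from a mean of 41.3% in GM to 34.6% in DM3 in control and from 40.5% to 36.0% in tKO. An added base equal to the next templated base counts as templated here.

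Non-templated 3′ bases, called tails, were present on 26.0% to 37.9% of miR-31-5p reads. Enzymes that add A or U to the 3′ end of small RNAs are known to make such tails. Pooled over all libraries, 31.0% of miR-31-5p reads and 16.7% of miR-31-3p reads were tailed, against a median of 27.8% over 315 names. Control GM had 37.9% and 32.6% in replicates 1 and 2 of line 1 and 35.7% and 29.6% in line 2. Control DM3 had 29.0% and 26.0% in line 1 and 29.2% and 30.3% in line 2. These groups overlapped through 1 library of each, and the mean difference was -5.31 percentage points (two-sided exact permutation p = 0.0571, adjusted p = 0.229 over 16 tests). In tKO the mean was 31.3 ± 1.98% in GM and 30 ± 2.42% in DM3, a difference of -1.26 percentage points (exact permutation p = 0.457, adjusted p = 0.665). With single libraries left out in turn, the tKO difference ranged from -2.02 to -0.076 points. Lower tail shares in DM3 were common, with 172 of 208 names below 0 in control.

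The kind of tail counted depended on where the templated sequence ended, in part through the rule of counting. In the tables a base equal to the next templated base counts as templated. T therefore cannot appear as a tail of the 20-nt, 22-nt or 23-nt form, C of the 19-nt form, or G of the 21-nt form. The 22-nt form was tailed in 44.7% to 58.6% of its reads. A was its most frequent single base (26.8% to 35.4%), followed by C (9.43% to 17.1%) and G (0.496% to 8.67%). The 23-nt form was tailed in 6.32% to 13.4% of its reads, a share that leaves out any added T. The 19-nt form was tailed in 53.3% to 83.0% of reads, with T alone on 40.0% to 66.8%. T there differs from the templated C that the 20-nt form carries. The 21-nt form carried A tails on a mean of 28.7 ± 3.06% in control GM and 18.6 ± 4.08% in control DM3, without overlap, and on 26.9 ± 1.56% and 23.4 ± 2.08% in tKO, with overlap. With any tail, the 21-nt form was at 36.3% to 44.0% in GM and 22.5% to 30.8% in DM3 in control, and at 36.0% to 38.2% and 30% to 34.8% in tKO, with no overlap in either. The values by length and base were not tested or counted for other names, and these were picked from many such combinations after they were seen.

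**Figure D5:**
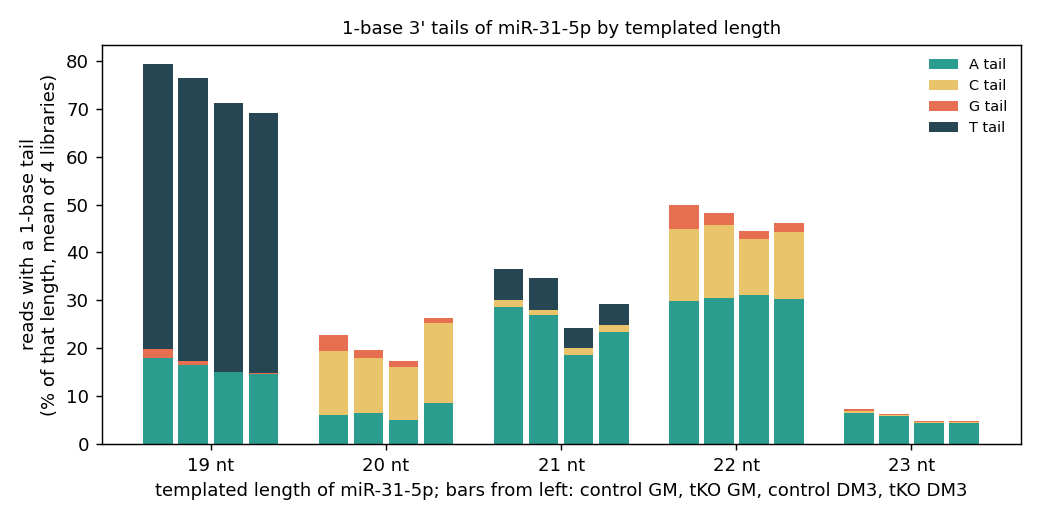
Share of miR-31-5p reads with a single non-templated 3′ base, by templated length from 19 to 23 nt and by base, as means of 4 libraries on a linear axis from 0. Within each length the bars are control GM, tKO GM, control DM3 and tKO DM3. T tails dominate at 19 nt, A and C tails at 22 nt, and the 23-nt form has few tails. A base equal to the next templated base is not counted as a tail, so T cannot appear at 20, 22 or 23 nt.

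The exact mature 22-nt sequence without tail made up 12.8% to 16.9% of miR-31-5p reads. Means were 13.9 ± 0.422% in control GM, 14 ± 1.11% in tKO GM, 14.3 ± 0.548% in control DM3 and 14.8 ± 1.52% in tKO DM3 (SD, n = 4). The groups overlapped in all 4 comparisons, and the lowest exact permutation p was 0.429.

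Names with the most similar pattern to miR-31-5p were sought over the 16 libraries among 246 others of at least 100 CPM on average, by Pearson's r of log2(TMM-scaled CPM + 1). The highest were miR-15b-5p (0.92), miR-17-5p (0.92), miR-20a-5p (0.92), miR-140-3p (0.89) and miR-28a-3p (0.85). All 5 were lower in control DM3 than in control GM, with log2 fold changes from -1.16 to -1.76, and passed there (edgeR adjusted p from 0.00019 to 0.0062). The lowest were miR-718-3p (-0.90), miR-6538 (-0.89) and miR-7672-5p (-0.89), each higher in control DM3. miR-31-3p had an r of 0.79 with miR-31-5p, rank 10 among the 246, where the median was 0.12. These libraries share the scaling and the contrast of media, so the values are descriptions.

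A list of 19 arms of miRNAs described in the regulation of muscle stem cells and myogenic factors was set beside miR-31, of which 16 passed the filter on low counts. In control, 5 were higher in DM3, where 15.9% of all names were: miR-206-3p (4.57, SE 0.78), miR-1a-3p (3.92, SE 0.60), miR-133a-3p (6.99, SE 0.73), miR-133b-3p (6.66, SE 0.73) and miR-675-3p (5.25, SE 0.85), all as log2 fold changes. These are the muscle miRNAs miR-206, miR-1 and miR-133 and the 3p arm of the H19-derived miR-675, and both arms of miR-31 went the other way. The other arm, miR-675-5p, was not higher in DM3, at -0.082 in control (SE 0.61, edgeR adjusted p = 0.951) and -1.20 in tKO (SE 0.63, adjusted p = 0.198). Another 4 were lower, beside 11.8% of all names: miR-221-3p (-2.06, SE 0.37), miR-222-3p (-2.09, SE 0.34), miR-497a-5p (-1.21, SE 0.42) and miR-29a-3p (-0.86, SE 0.27), as miR-31 was. The median over the list was 0.46, against 0.023 for all 807 names. In tKO 4 were higher (miR-27b-3p, miR-133a-3p, miR-133b-3p and miR-675-3p) and 2 lower (miR-221-3p and miR-222-3p), beside 11.4% and 8.3% of all names, with a median of 0.23 against 0.0081. Between genotypes 1 of 16 passed in GM and 2 in DM3, all lower in tKO (0.62% and 0.496% of all names were), the deleted miR-206-3p in both and miR-1a-3p in DM3. The list held no call in the interaction (edgeR).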

How the data were processed

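Small RNA libraries were made from 0.5 µg total RNA and selected for inserts of 15 to 50 nt, per the labels. Adapter trimming with cutadapt 1.15, STAR 2.5.4 and the build mm10 are named in the submitters' processing notes. The names of the deposited tables give unitas as the annotation tool. The deposited values are expected counts per sequence without normalization, and some are fractions. The version of unitas and the miRNA release are not given in the sources used here. Expected counts were summed per name, 2510 names were merged to 2274, and sums were rounded. The arms and lists were chosen with earlier results of these data known.

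All 16 libraries entered 1 fit in edgeR 4.0.16 (R 4.3.3) with a coefficient per group, filterByExpr (807 names), TMM and robust quasi-likelihood F tests. The fit was first tested on simulated counts with known changes. Arm ratio (pseudocount 0.5), exact mature share, mean length and tail share were compared by two-sided exact permutation of 4 against 4 libraries, with Benjamini-Hochberg adjustment over 16 tests. Wilson 95% intervals and a floor of 3 counts (0.458 to 26.6 CPM) cover counting error only.

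Named besides miR-31 were the 5 names with the highest and the 3 with the lowest r, neighbours in mean CPM, and list members that passed. The list member miR-675-5p was named beside its other arm. Pairing was checked by correlating deviations from group means over 551 names. The mean r was 0.101 over 48 pairs with the same replicate number (-0.460 to 0.637). Over 48 pairs with different replicate numbers it was -0.0953 (-0.638 to 0.556). These ranges overlapped, and whether replicate numbers pair the libraries was not settled. With the same line and replicate number in GM and DM3 the mean r was 0.176 (8 pairs). Libraries of the same line in GM and DM3 had a mean r of 0.147 (16 pairs) and of different lines -0.138. The lines are shared by design, per the labels. Alternatives covered scaling, filters, DESeq2 1.42.0, blocks, subsets of reads and libraries left out. The split by hairpin position and the share of 19 to 21 nt forms were added after the sequences were seen.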

Additional observations from a re-analysis of the deposited data

Results flagged for a closer look

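In groups of 4 libraries, a library far from the other 3 was looked for in 8 measures of miR-31 and 4 groups. The log2 arm ratio of control DM3 line 1, replicate 1 was 7.31, against 5.94 to 6.07 in the others, with 11 reads of the 3p arm behind it. The mean length of miR-31-5p in tKO DM3 line 1, replicate 1, the smallest library, was 21.9 nt, against 21.72 to 21.76 nt. Loop-spanning reads per 100 mature 5p reads were 1.45 in control DM3 line 1, replicate 2, against 0.915 to 0.994. The share of 19 to 21 nt forms was 29.8% in control DM3 line 2, replicate 1, against 23.4% to 24.2%. These are 4 of 32 groups looked at, and chance marks about 1 in 20. The named libraries are all from DM3.

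Reads of the 5′ flank of the Mir31 hairpin, which end at or next to the base before the 5p arm, were counted with miR-31-5p in its levels and mean length, and no comparison took them by themselves. They numbered 124 over all libraries. Single control libraries had 1 to 31 such reads in GM and at most 1 in DM3, and tKO libraries 9 to 29 and at most 4, not scaled for depth. The leading sequence, shown because it lies outside both arms, had 59 reads in 8 libraries.
5′ flank form: taactcggaactggagagg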

How the results depend on the processing

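Decreases of miR-31 in DM3 are given as log2 fold changes with edgeR's adjusted p unless DESeq2 is named, and the cause of a change between settings was not tested. With total-count scaling miR-31-5p in control was -0.59 (0.0674), and with replicate 1 or 2 alone, which has fewer samples, -0.91 (0.125) and -1.20 (0.0847). miR-31-3p in control was -0.50 (0.367) with 18 to 25 nt, -1.50 (0.126) with replicate 1 and -0.96 (0.148) by mature forms. In tKO, miR-31-5p passed at -0.56 with the DESeq2 Wald test (0.0326) and at -0.55 with replicate block and line (0.046). miR-31-3p in tKO was lost at -1.43 without filter (0.081), -1.27 with only the groups compared (0.0722), -0.68 with 18 to 25 nt (0.217), -1.75 and -0.91 with replicate 1 and 2 alone (0.0776 and 0.28), and -0.84 by mature forms (0.236). In tKO miR-31-5p was -0.26 with total counts (0.493) and -0.34 without mismatches (0.194). The replicate block alone changed no call of the arms, with -1.03 for miR-31-5p and -1.51 for miR-31-3p in control.

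Signs turned for miR-31-5p between genotypes in GM with replicate 2 (-0.24), for miR-31-3p there with replicate 2 (-0.28), for its interaction with 18 to 25 nt (-0.18) and replicate 1 (-0.25), and for the control arm ratio with 18 to 25 nt (-0.24) and mature forms (-0.091). None of these had passed. The interaction of miR-31-5p kept its sign over the settings run, at 0.23 to 0.66. Line terms were centred within genotype, so that genotype contrasts average both lines.

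Names called between genotypes in GM, 9 in all, were 15 without filter, 20 with DESeq2, 27 with replicate block and line, 18 without mismatches, 16 with 18 to 25 nt and 2 with replicate 1. In DM3, 7 became 14, 19, 21, 13, 15 and 1 in that order, 4 with only the groups compared and 70 with replicate 2. The 223 calls in control were 139 with 18 to 25 nt and 85 with replicate 1, the 159 in tKO 82 with only the groups compared and 74 with replicate 2, and the interaction had 1 with 18 to 25 nt. The share of higher calls in control was 71.2% with total counts, 45.5% without mismatches and 49.6% with 18 to 25 nt, and in tKO 71.7% with total counts and 42.5% with 18 to 25 nt.

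With each library left out in turn, calls between genotypes ranged from 5 to 16 in GM and 5 to 53 in DM3, and from 0 to 1 in the interaction. The interaction value ranged from 0.30 to 0.60 for miR-31-5p and from 0.047 to 0.40 for miR-31-3p. miR-31-3p in tKO ranged from -1.46 to -1.12. Between genotypes in DM3 miR-31-5p ranged from 0.32 to 0.62 and miR-31-3p from 0.20 to 0.59. In GM they ranged from -0.039 to 0.12 and from -0.038 to 0.33. Between genotypes the arm ratio in DM3 ranged from -0.15 to 0.40, the exact share from -0.13 to 1.08 in DM3 and from -0.22 to 0.51 in GM, and loop-spanning reads from -0.24 to 0.37 in DM3 and from -0.30 to 0.27 in GM. The decreases in control kept their calls, at -1.16 to -0.97 for miR-31-5p and -1.72 to -1.37 for miR-31-3p. Depth limits the 3p arm, at 9 reads in the smallest library.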

Other observations

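Reads listed under miR-31-5p with a mismatch made up 8.52% to 10.3% of its reads per library. Over all libraries this share was 9.24%, against a median of 8.55% over 315 names. The most frequent mismatch was A1G, with 23.1% of the mismatch reads, followed by T23A with 13.1% and T24A with 7.62%. Positions are counted from 1 at the 5′ end of miR-31-5p, with the reference base first. Positions 23 and 24 lie beyond the annotated 22 nt, and whether an A there is a tail was not tested.

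Pooled over all libraries, mature miR-31-3p reads ended at hairpin base 85 in 48.8% of cases and at base 86, the annotated end, in 41.3%. The annotated 3p sequence was thus not its most frequent form in the pool. Single libraries held 3 to 668 such reads, so the deepest weigh most.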
